A study of Mus musculus with 8 samples.

Results

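Pax genes encode transcription factors that bind DNA through a paired domain, and 7 of them were examined here, namely Pax1, Pax2, Pax3, Pax5, Pax7, Pax8 and Pax9. They were taken by name, but chosen with earlier results of these data known, and Pax4 and Pax6 are given apart from them below. All 200 bp tiles overlapping each gene's RefSeq span in GRCm38 with 2 kb on either side were collected from 8 tables of differentially methylated tiles. All 7 genes were found in the RefSeq table, among 21896 protein-coding genes. The tables listed at least 1 tile for 6 of the 7 members, 146 distinct tiles of the 53375 listed in the whole series. A tile listed in several comparisons gives several values, so the 146 tiles gave 238 listed values in all.

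In the embryo, Pax genes set up organs and cell lineages. Pax1 and Pax9 pattern the vertebral column and the pharyngeal pouches, Pax2 and Pax8 act in the kidney and the thyroid, Pax5 commits lymphoid progenitors to the B cell fate, and Pax3 and Pax7 act in neural crest and muscle progenitors. CpG-rich starts of developmental regulators of this kind carry Polycomb marks in many tissues where the genes are silent, and they are known as frequent sites of DNA methylation gain in colorectal tumours and in ageing tissue.

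The organoids were grown from crypts of the proximal 2.5 cm of the colon of male mice about 40 days old that were heterozygous for a Cre-activable BrafV600E allele, Braf+/LSL, which all groups shared. DNA methylation was measured by reduced representation bisulfite sequencing, which samples CpG-rich fragments released by a restriction enzyme. There were 8 libraries, 2 in each of 4 groups, 1 from organoid line 1 and 1 from organoid line 3. In the first group lentiviral Cre had switched on BrafV600E, a mutant BRAF kinase that is always active, and the organoids, at 5 months of culture, had been selected for growth in Base medium, from which niche factors of the stem cells are left out. Its reference was organoids of the same line given the empty lentiviral backbone and kept in full medium for 5 months, so the oncogene and the medium changed together and cannot be told apart. The other comparison, with empty vector and full medium throughout, set line 1 at 12 months and line 3 at 14 months against organoids of the same line at 2 months. All libraries carry a final culture of 3 weeks in their labels. For the library titled 14 months, other label fields give 2 months of culture, and the source name of the line 1 BrafV600E library gives line 3. Titles were followed in both cases.

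Each table compares 1 library with 1 library, and lists tiles with a methylation change of 20 percentage points or more and a q-value no higher than 0.01. The lines are therefore the only replicates, and with 2 of them an exact two-sided sign test cannot go below p = 0.5, so no test of a condition was made and the q-values are the authors' own, for those libraries. All tile differences and q-values given here are those of the authors' deposited tables, which hold no read counts and no methylation levels. A missing tile may be unchanged or uncovered, and a tile that starts near 0 can be listed only as a gain. The tables held 15305 tiles for line 1 and 29949 for line 3 with BrafV600E, and 8263 and 21524 with long culture.

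The sequences below are the 250 bases before an annotated start, 5′ to 3′ on the gene's strand, from RefSeq (GRCm38.p6), with every CpG in capitals because CpG cytosines are where methylation was measured. They are shown for Pax1, Pax2 and Pax7, whose starts carry listed tiles, and for Pax8, which has none.
Pax1, chr2:147364744-147364993, plus strand: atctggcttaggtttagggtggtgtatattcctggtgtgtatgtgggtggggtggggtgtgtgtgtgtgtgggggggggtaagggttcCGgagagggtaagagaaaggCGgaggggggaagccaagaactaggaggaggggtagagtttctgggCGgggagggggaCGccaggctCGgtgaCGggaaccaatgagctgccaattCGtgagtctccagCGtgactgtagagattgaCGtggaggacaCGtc
Pax2, start at 44756906, chr19:44756656-44756905, plus strand: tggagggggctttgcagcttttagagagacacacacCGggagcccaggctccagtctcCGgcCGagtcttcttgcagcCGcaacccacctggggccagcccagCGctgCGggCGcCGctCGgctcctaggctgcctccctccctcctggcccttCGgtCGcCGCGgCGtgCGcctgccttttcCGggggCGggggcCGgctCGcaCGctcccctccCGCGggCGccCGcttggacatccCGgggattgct
Pax7, chr4:139832969-139833218, minus strand: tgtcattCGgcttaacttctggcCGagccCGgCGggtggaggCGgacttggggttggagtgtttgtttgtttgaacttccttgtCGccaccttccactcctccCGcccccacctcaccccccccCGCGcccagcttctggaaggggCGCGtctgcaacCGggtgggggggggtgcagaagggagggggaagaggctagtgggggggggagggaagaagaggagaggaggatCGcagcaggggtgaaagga
Pax8, chr2:24475600-24475849, minus strand: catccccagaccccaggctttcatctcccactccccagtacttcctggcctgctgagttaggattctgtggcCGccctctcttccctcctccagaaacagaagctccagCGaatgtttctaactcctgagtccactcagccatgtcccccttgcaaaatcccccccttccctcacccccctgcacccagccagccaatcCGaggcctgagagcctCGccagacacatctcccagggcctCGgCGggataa

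These stretches hold 10 CpGs at Pax1, 25 at this Pax2 start, 13 at Pax7 and 6 at Pax8, where the median over 32851 RefSeq starts is 6. The 4-letter sequence CCGG, which reads the same on both strands and is the site of an enzyme commonly used for this assay, occurs 1 time at Pax1, 5 times at this Pax2 start, 2 times at Pax7 and 0 times at Pax8, and 47.1% of all RefSeq starts hold it at least once in these 250 bases. Of the stretches not shown, those before the Pax2 starts at 44746601 and 44755752 hold 5 and 20 CpGs, that of Pax5 19 and that of Pax9 7. In the same order CCGG occurs 0, 2, 1 and 0 times. The tile from 44755401, which overlaps the stretch before the Pax2 start at 44755752, had a difference of -30.8 points with BrafV600E in line 3. The enzyme used is not given in the sources used here, and a match is a description only. In the sequences above, bases 58 to 250 of Pax1 lie in the tile from 147364801. For Pax2, bases 1 to 145 lie in the tile from 44756601 and bases 146 to 250 in the tile from 44756801. For Pax7, bases 1 to 18 lie in the tile from 139833201 and bases 219 to 250 in the tile from 139832801. RefSeq start sequences were matched for 6 of the 7 members. Pax3 had no entry.

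Long culture without the oncogene was accompanied by methylation gains at the Pax genes in both lines. In the authors' deposited tables, 24 tiles gained and 7 lost in line 1 (77.4% gains, exact Clopper-Pearson 95% interval 58.9 to 90.4), and 84 gained and 9 lost in line 3 (90.3%, 82.4 to 95.5). Over all listed tiles the share of gains was 40.9% in line 1 and 71.9% in line 3, and over listed tiles in the windows of protein-coding genes it was 47.9% and 78.2%. Neighbouring tiles of a gene are not independent, and the intervals cover counting error only. Of the 7 members, 6 had a gained tile in each line, and Pax8 had no listed tile. Among protein-coding genes, 8.54% had a gained tile in line 1, 20.3% in line 3 and 6.49% in both. The members were chosen with earlier results of these data known, so such counts beside all genes are a description only. Lost tiles were found at 3 members in line 1, at 4 in line 3 and at 3 in both (Pax2, Pax5 and Pax7), against 10.9%, 12.2% and 4.07% of protein-coding genes. The members span 13.1 to 186 kb, with a median of 91.7 kb against 17.1 kb over protein-coding genes, and a longer gene has more tiles that could be listed. Among the 12516 genes at least as long as the shortest member, 8.21% had a gain and 6.18% a loss in both lines. That set holds 57.2% of protein-coding genes and is not matched to the members in length.

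**Figure D1:**
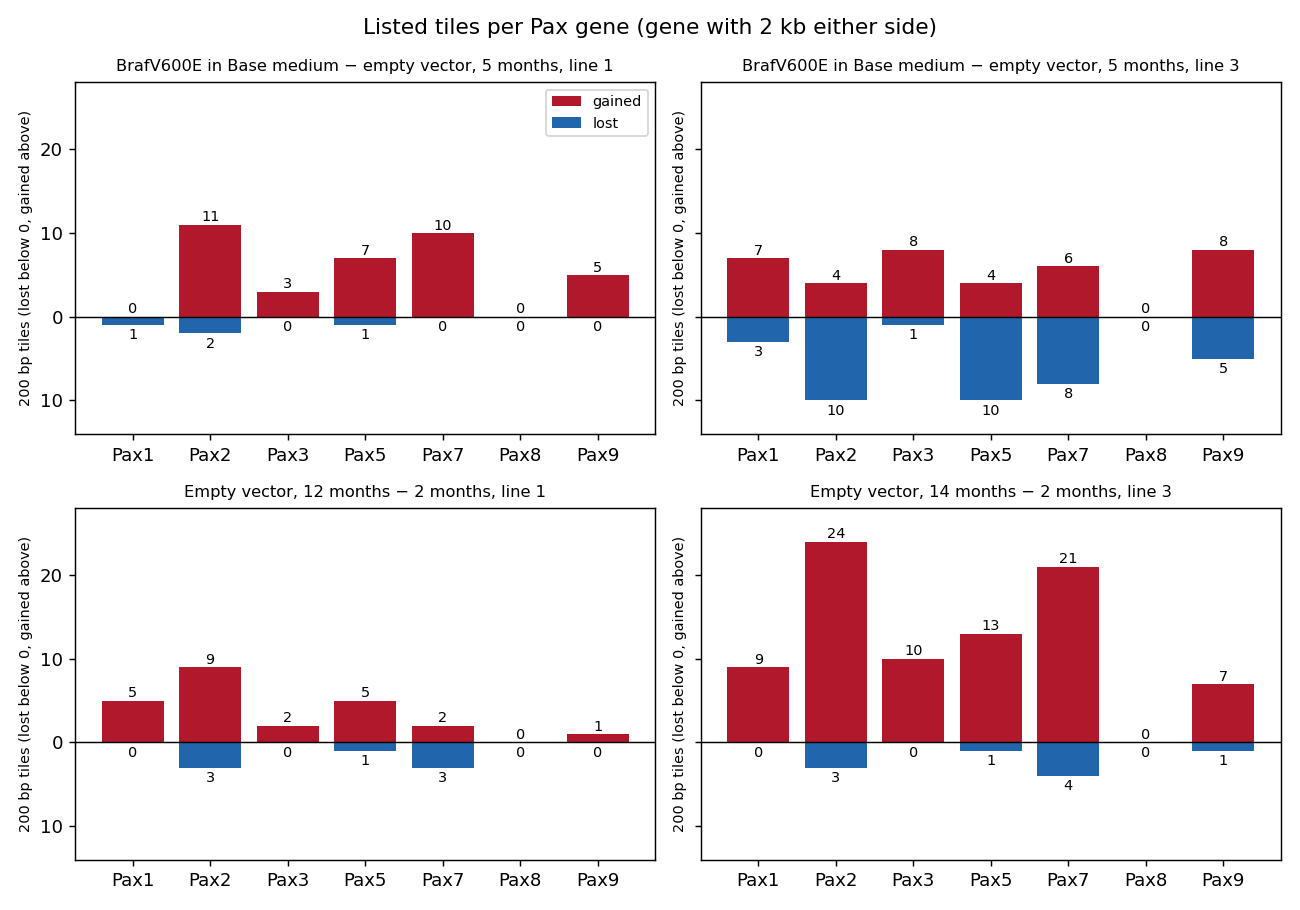
Number of 200 bp tiles (y axis) listed as gained (red, above 0) or lost (blue, below 0) for each Pax gene (x axis) in the 4 within-line comparisons, with the counts printed at the bars. Gains outnumber losses for Pax2 in 3 panels but not with BrafV600E in line 3, where 4 tiles gained and 10 lost, and Pax8 is at 0 throughout.

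With BrafV600E in Base medium the balance of gains and losses differed between the lines. In line 1, 36 tiles gained and 4 lost (90%, 95% interval 76.3 to 97.2), whereas line 3 had 37 of each (50%, 38.1 to 61.9) in the authors' deposited tables. The share of gains over all listed tiles was 67.5% in line 1 and 40.4% in line 3, and over those in the windows of protein-coding genes 72.1% and 47.4%. A gained tile was present at 5 members in line 1, at 6 in line 3 and at 5 in both, against 17.8%, 20.9% and 11.3% of protein-coding genes. A lost tile was present at 3 members in line 1 (Pax1, Pax2 and Pax5), at 6 in line 3 and at the same 3 in both, against 10.5%, 20.3% and 6.07% of protein-coding genes. In genes at least as long as the shortest member, again not matched in length, the shares in both lines were 14.9% for gains and 9.07% for losses.

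Pax1 and Pax9 form a subgroup without a homeodomain and act together in the sclerotome, which forms the vertebrae. Pax1 (Entrez gene 18503, chromosome 2, 147361930 to 147375049) had gains and no losses with long culture, averaging 41.2 points in line 1 (5 tiles) and 44.6 points in line 3 (9 tiles), in the authors' deposited tables. The tile from 147364801, which holds bases 58 to 250 of the Pax1 sequence above, gained 40.5 points in line 1 (q = 0.00931) and 46.5 points in line 3 (q = 2.48e-12) in the authors' deposited tables. From there 6 tiles over 1600 bp gained in line 3, by 33.3 to 57.3 points, whereas line 1 had 2 listed tiles in the same stretch. Near the far end of the gene, the tile from 147373801 gained 56.2 points in line 1 and 48.9 points in line 3 in the authors' deposited tables.

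With BrafV600E the lines differed at Pax1. Line 1 had a single listed tile, from 147361601 and outside the gene span, with a difference of -27.9 points (q = 7.99e-05), and line 3 had 7 gained and 3 lost tiles, averaging 23 points, in the authors' deposited tables. The 6 gained tiles of line 3 between 147364801 and 147366400 averaged 45.7 points with BrafV600E and the 6 gained there with long culture averaged 45.9 points, in the same line and with no library in common; the tiles were not all the same. The largest listed gain of line 3 with BrafV600E was 55.4 points, at the tile from 147366201. Upstream, the tiles from 147362201 and 147362401 had differences of -44.1 and -33.7 points with BrafV600E in line 3, and they lie in the lncRNA gene AI646519, as does the tile from 147361601. That last tile lost with BrafV600E in line 1 and gained with long culture, by 26.8 points in line 1 and 38 points in line 3, in the authors' deposited tables.

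Pax9 (gene 18511, chromosome 12, 56691693 to 56712824) is also needed for tooth development. Its listed tiles were divided here at its annotated start, 56695471. This cut was made for Pax9 alone, and the other members were divided only at gaps of more than 10 kb. The start lies inside the RefSeq span, so the upstream side includes tiles inside the span, those from 56692601, 56693401 and 56694801. On the upstream side, between 56689801 and 56695000, all 16 listed values were gains, 2 with BrafV600E in line 1, 8 with BrafV600E in line 3 and 6 with long culture in line 3. The tile from 56691201 gained 31.2 points in line 1 and 83.5 points in line 3 with BrafV600E (q = 1.48e-17 and 3.36e-143), and 24.1 points with long culture in line 3, in the authors' deposited tables. The next tile, from 56691401, gained 41.2 and 53 points with BrafV600E in lines 1 and 3, and 55.9 points with long culture in line 3. The largest gain with long culture in line 3 was 72.1 points, at the tile from 56691001. These upstream tiles overlap the lncRNA gene Gm15524, so they cannot be assigned to either gene, except the tile from 56694801, which gained 70 points with BrafV600E in line 3.

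Downstream of the Pax9 start, between 56695601 and 56698200, BrafV600E went with 3 gains in line 1 and 5 losses in line 3. The tile from 56697001 gained 66.7 points in line 1 and had a difference of -53.7 points in line 3, in the authors' deposited tables. Long culture had 1 listed tile in line 1, from 56698001, which gained 74.1 points, while the same tile had a difference of -41.2 points in line 3. The mean over all Pax9 tiles was 48.3 points in line 1 (5 tiles) and 20.9 points in line 3 (13 tiles) with BrafV600E. The line 3 mean was -1.78 points over 8 tiles when the gene span alone was used, and -19.5 points over 6 tiles when tiles shared with another gene were left out. With long culture the line 3 mean was 34 points (8 tiles), and -6.86 points over the 2 tiles that no other gene overlaps.

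Pax2, Pax5 and Pax8 form a second subgroup, of the developing kidney, the midbrain and B cells. Pax2 (gene 18504, chromosome 19, 44746601 to 44838269) had the most listed values of the 7 members, 48 gains and 18 losses over 39 distinct tiles. With long culture, 9 tiles gained and 3 lost in line 1 and 24 gained and 3 lost in line 3, and the count of 24 was the highest of all 21896 protein-coding genes in that table. In line 1 only 4 genes, Pax2 included, had 9 or more gained tiles. The number of tiles tested per gene is not known, so these counts do not show how often a tested tile was gained.

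With long culture the Pax2 gains of line 3 lay toward both ends of the gene and those of line 1 around the starts alone. The long culture losses of both lines lay in the interior, whereas 6 losses with BrafV600E lay around the starts, 2 in line 1 and 4 in line 3. Around the 3 annotated starts, between 44746001 and 44761200, long culture gave 9 gains and 0 losses in line 1 and 19 gains and 0 losses in line 3. In the last listed stretch, 44835601 to 44837400, there were 5 gains with long culture in line 3, and 3 and 1 gains with BrafV600E in lines 1 and 3, with 0 losses in any table. In the interior, between 44783601 and 44825400, all but 1 of 13 listed values were losses. The exception was the tile from 44812601, listed in all 4 comparisons, which gained 28.4 points with BrafV600E in line 1 and had differences of -36.1 points with BrafV600E in line 3, -64.1 points with long culture in line 1 and -39.6 points with long culture in line 3, in the authors' deposited tables.

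Among single Pax2 tiles, the tile from 44757201 just past the start at 44756906 had the largest gain with long culture in line 3, 91.5 points (q = 2.33e-14), and the tile from 44749001 the largest in line 1, 89.1 points. The tiles from 44756601 and 44756801, which cover the Pax2 sequence printed above, gained 43.1 and 29.7 points in line 3 with long culture in the authors' deposited tables. The tile from 44756201 gained 65.9 points in line 1 and 40.2 points in line 3 with long culture, and lost with BrafV600E in line 1, with a difference of -23.1 points. The largest interior loss with long culture was at the tile from 44783601, with differences of -87.8 points in line 1 and -29.5 points in line 3. With BrafV600E that tile had -25.3 points in line 3.

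With BrafV600E the Pax2 means had opposite signs, 22.1 points in line 1 (13 tiles) and -22.5 points in line 3 (14 tiles), in the authors' deposited tables. Line 1 had 11 gains and 2 losses, and line 3 had 4 gains and 10 losses. The 2 lines shared 4 tiles, of which 2 had the same direction. The tile from 44758801 gained 33.3 and 32 points in lines 1 and 3, and the tile from 44751201 had differences of -54.8 points (q = 1.91e-72) and -67.6 points (q = 7.98e-99), the strongest q-values of any Pax2 tile. That tile gained 30.5 points with long culture in line 1. The lowest value in line 3 was -77.7 points, in the interior at the tile from 44825201, and the highest in line 1 was 45.5 points, at the tile from 44835801, which lies in the lncRNA gene 1700039E22Rik.

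Pax5 (gene 18507, chromosome 4, 44524748 to 44710694, minus strand) is the longest member. Of its 29 gains, 9 lay between 44664001 and 44664800, where no loss was listed, and 16 lay between 44702201 and 44712400, where 2 losses were listed. The other 4 gains lay between 44558001 and 44565200. They include the highest value with BrafV600E in line 1, 58.1 points at the tile from 44558201. The lowest value with long culture in line 1, -47.2 points at the tile from 44561201, lay there too. The tile from 44712201, outside the gene span on the upstream side of the start, gained in all 4 comparisons, by 43.4 points in line 1 and 40.5 points in line 3 with BrafV600E, and by 31 points in line 1 and 39.1 points in line 3 with long culture, in the authors' deposited tables. Those 4 values lie within a range of 31 to 43.4 points, and no other annotated gene overlaps the tile.

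The Pax5 tiles between 44703201 and 44704600 overlap the lncRNA gene 5730488B01Rik. There the tile from 44703601 gained 36.1 points in line 1 and 80.1 points in line 3 with long culture, and with BrafV600E it gained 49.7 points in line 1 and had a difference of -28.9 points in line 3, in the authors' deposited tables. The tile from 44704001 gained 75.1 points with long culture in line 3 (q = 5.3e-109), 52.8 points with BrafV600E in line 1, and had a difference of -23.7 points with BrafV600E in line 3. Away from these places, between 44575401 and 44614000, all 8 listed values were losses, 6 of them with BrafV600E in line 3. The lowest with long culture in line 3 was -100 points, at the tile from 44575401. Nearer the start, between 44679201 and 44679600, 2 more losses were listed with BrafV600E in line 3. They were -54.7 points at the tile from 44679201 and -100 points at the tile from 44679401. The tile from 44586401 lost in both lines with BrafV600E, with differences of -41.8 and -41.3 points (q = 0.00442 and 0.01). The Pax5 means with BrafV600E were 36 points in line 1 (8 tiles) and -24.4 points in line 3 (14 tiles), and with long culture 18 points (6 tiles) and 42.8 points (14 tiles). With differences of at least 40 points alone, the long culture mean of line 1 rested on 2 tiles and was -3.53 points. Without tiles shared with another gene it was 3.56 points over 3 tiles, and with 10 kb either side 3.49 points over 7 tiles. The long culture mean of line 3 without shared tiles was 31.9 points over 9 tiles.

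Pax8 (gene 18510, chromosome 2, 24420551 to 24475599), known for its role in the thyroid, had 0 listed tiles in all 8 tables. Whether its tiles were covered and did not differ, or were not covered, cannot be read from these files.

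**Figure D2:**
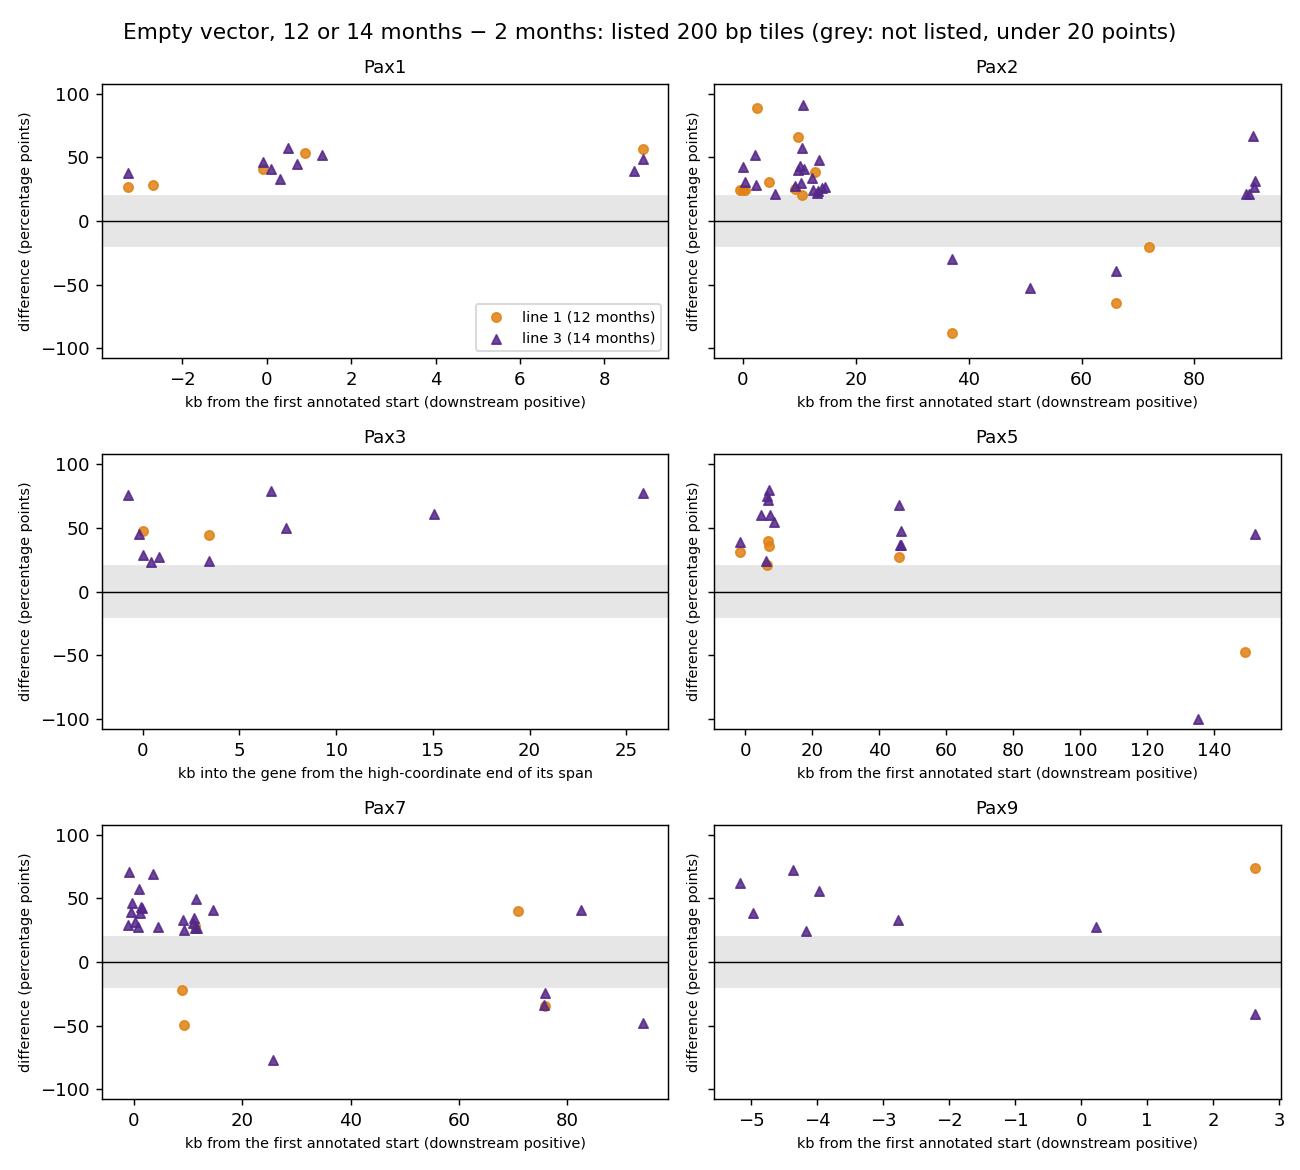
Methylation difference in percentage points (y axis) of every listed tile with long culture, empty vector at 12 months (line 1, circles) or 14 months (line 3, triangles) minus 2 months, against the distance in kb from the first annotated start (x axis; for Pax3 from the high-coordinate end of its span). At Pax2 the losses lie in the interior, gains of both lines lie around the starts, and the cluster of gains at the far end is of line 3 alone. Pax1 and Pax3 have gains alone, and the 2 values of the Pax9 tile furthest downstream are opposite.

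Pax3 and Pax7 form the subgroup that marks neural crest and muscle progenitors, and Pax7 is the marker of muscle satellite cells. Pax3 (gene 18505, chromosome 1, 78101267 to 78197136) was the member with the most uniform direction, with 23 gains and 1 loss. Of its listed values 22 lay between 78182001 and 78198000, at the high-coordinate end of the span, and all were gains. The tile from 78197001 gained in all 4 comparisons, by 37.6 points in line 1 and 65.6 points in line 3 with BrafV600E, and by 47.5 points in line 1 and 28.9 points in line 3 with long culture, in the authors' deposited tables. With BrafV600E in line 3, 5 tiles in a row between 78196201 and 78197200 gained 45.8 to 78.2 points. The one loss was at the tile from 78142201 in the interior, with a difference of -84.6 points with BrafV600E in line 3.

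The Pax3 means with BrafV600E were 40.3 points in line 1 (3 tiles) and 36.7 points in line 3 (9 tiles), and with long culture 46.1 points (2 tiles) and 49.2 points (10 tiles), in the authors' deposited tables. Both lines therefore had the same sign in both comparisons, which held for no other member with BrafV600E except Pax9. The largest gain with BrafV600E in line 1 was 51.5 points, at the tile from 78195201. With long culture the largest gain in line 3 was 79.2 points, at the tile from 78190401, and it was also listed with BrafV600E in that line, at 45.5 points. No other annotated gene lies in the Pax3 window.

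Pax7 (gene 18509, chromosome 4, 139737059 to 139833530, minus strand) gained at 21 tiles and lost at 4 with long culture in line 3, where 11 protein-coding genes, Pax7 included, had 21 or more gained tiles. There, 10 gained tiles with gaps of at most 500 bp spanned the start, between 139831401 and 139834200, and gained 27.8 to 70.4 points. They include the tile from 139833201, which gained 46.4 points (q = 3.47e-17) and holds the first bases of the Pax7 sequence above. The tiles from 139833201 on also overlap the lncRNA gene Gm46873. With long culture line 1 had 2 gains and 3 losses, averaging -7.56 points, whereas the 25 tiles of line 3 averaged 25.9 points, in the authors' deposited tables. Of the 3 tiles shared by the lines 1 was opposite, the tile from 139823601, at -49.3 points in line 1 and 25.4 points in line 3. The lowest value with long culture in line 3 was -77.4 points, at the tile from 139807201.

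With BrafV600E, line 1 had 10 gains and 0 losses at Pax7, averaging 43.1 points, and line 3 had 6 gains and 8 losses, averaging -10.7 points, in the authors' deposited tables. The tile from 139832801, which holds the last bases of the Pax7 sequence above, gained 47.8 points in line 1 (q = 2.31e-06). Deep in the gene, the tile from 139750401 gained 74.6 points in line 1 and 63.8 points in line 3. It also gained 40.8 points with long culture in line 3. The tile from 139829401 gained 40.7 and 57.5 points in lines 1 and 3, and 69.1 points with long culture in line 3. Opposite values were listed at the tile from 139818201, with a gain of 55 points in line 1 and a difference of -90.2 points in line 3, and at the tile from 139821401, with a gain of 37.1 points in line 1 and a difference of -31.1 points in line 3. Both gained with long culture in line 3, by 41.2 and 49.4 points in the authors' deposited tables.

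**Figure D3:**
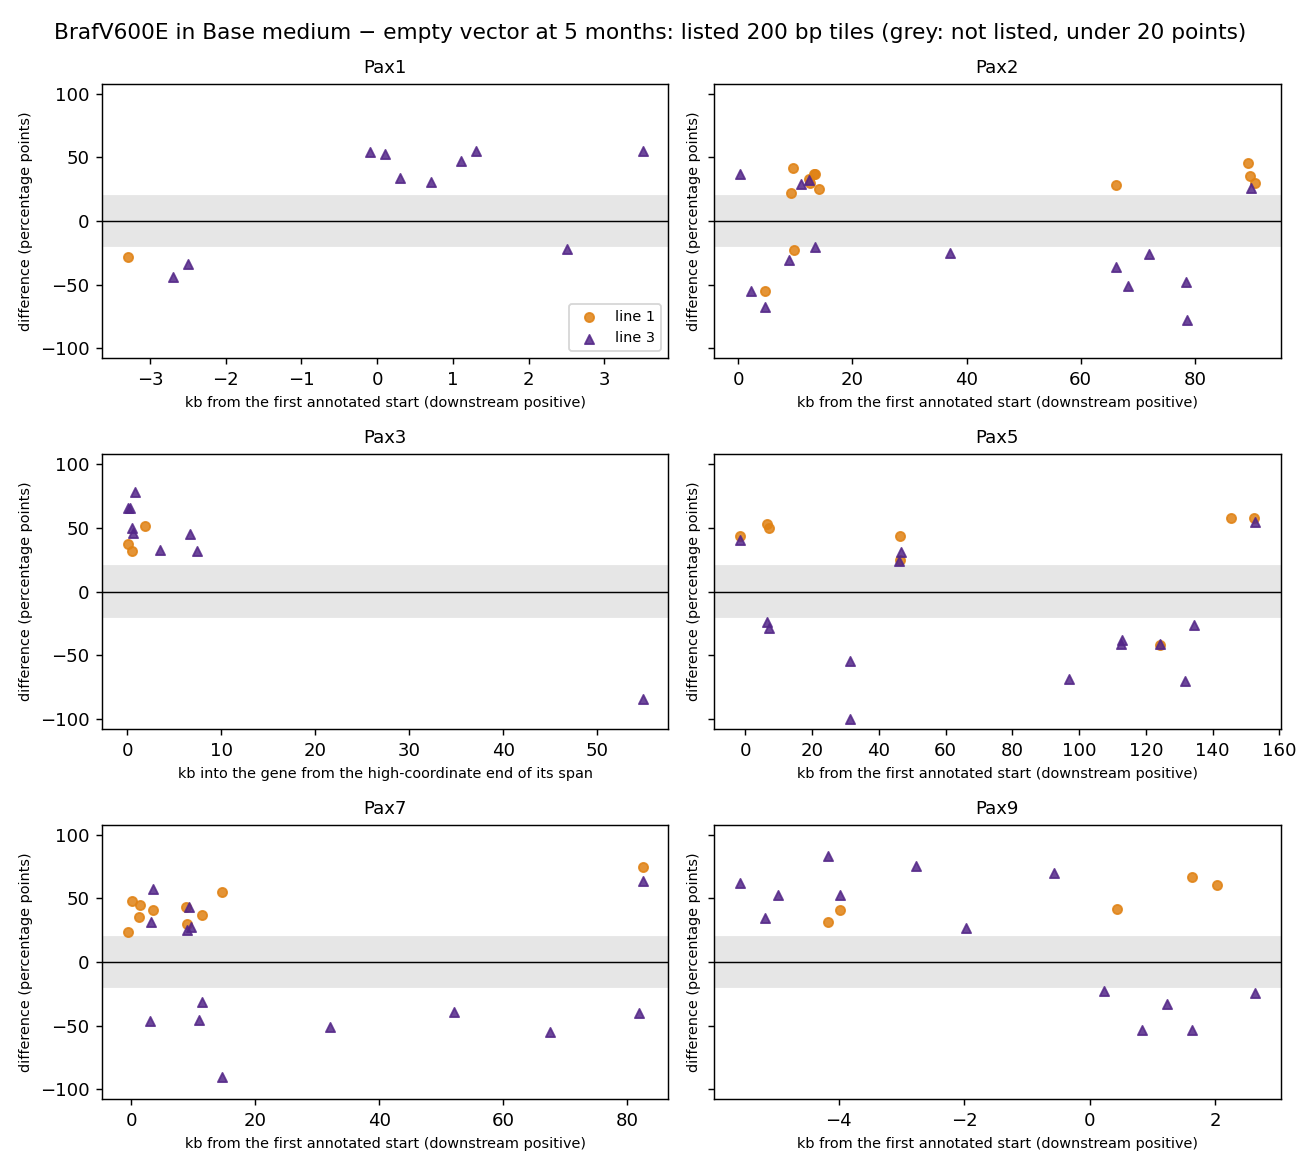
Methylation difference in percentage points (y axis) of every listed tile, BrafV600E in Base medium minus empty vector at 5 months, in line 1 (circles) and line 3 (triangles), against the distance in kb from the first annotated start (x axis; for Pax3 from the high-coordinate end of its span). Line 1 values are mostly gains, and line 3 has losses inside Pax2, Pax5 and Pax7 and just downstream of the Pax9 start.

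Across the members, gains lay closer to annotated starts than losses in 3 of the 4 within-line comparisons, leaving out Pax3. The median distance with long culture was 2.56 kb for 22 gains and 55.8 kb for 7 losses in line 1, and 3.46 kb for 74 gains and 55.8 kb for 9 losses in line 3. With BrafV600E in line 3 it was 3.47 kb for 29 gains and 20.7 kb for 36 losses, and in line 1 it was 3.97 kb for 33 gains and 3.87 kb for only 4 losses. The same order, with gains closer, was seen over all listed tiles in the windows of protein-coding genes, counted for genes with a RefSeq start sequence, where the medians with long culture were 1.17 kb for gains and 12.8 kb for losses in line 1, and 1.96 and 18.6 kb in line 3. The BrafV600E medians over those tiles were 4.07 kb for gains and 15.3 kb for losses in line 1, and 5.15 and 24.2 kb in line 3. Those distances run to the nearest start of any protein-coding gene, whereas the Pax distances run to the member's own starts. The sizes of the medians are therefore not on the same measure, and only the order of gains and losses is set side by side.

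The lines were then compared tile by tile. With long culture 20 Pax tiles were listed in both lines, 15 gained in both, 3 lost in both and 2 were opposite, so 90% had the same direction (95% interval 68.3 to 98.8), against 68.5% of 3220 such tiles over the whole tables. All 7 shared tiles of Pax2, all 4 of Pax5, all 3 of Pax1 and both of Pax3 had the same direction. With BrafV600E 18 Pax tiles were listed in both lines, of which 9 gained in both, 2 lost in both and 7 gained in line 1 and lost in line 3, so 61.1% had the same direction (35.7 to 82.7), against 73.9% of 5934 over the whole tables. With long culture, gains were 77.4% and 90.3% of the Pax tiles in lines 1 and 3, against 40.9% and 71.9% over the whole tables. Tiles that are mostly gains in both lines have the same direction more often for that reason alone, so those 2 shares have unlike baselines. Both intervals take tiles as independent, which neighbours are not, and the difference from the whole tables was not tested.

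**Figure D4:**
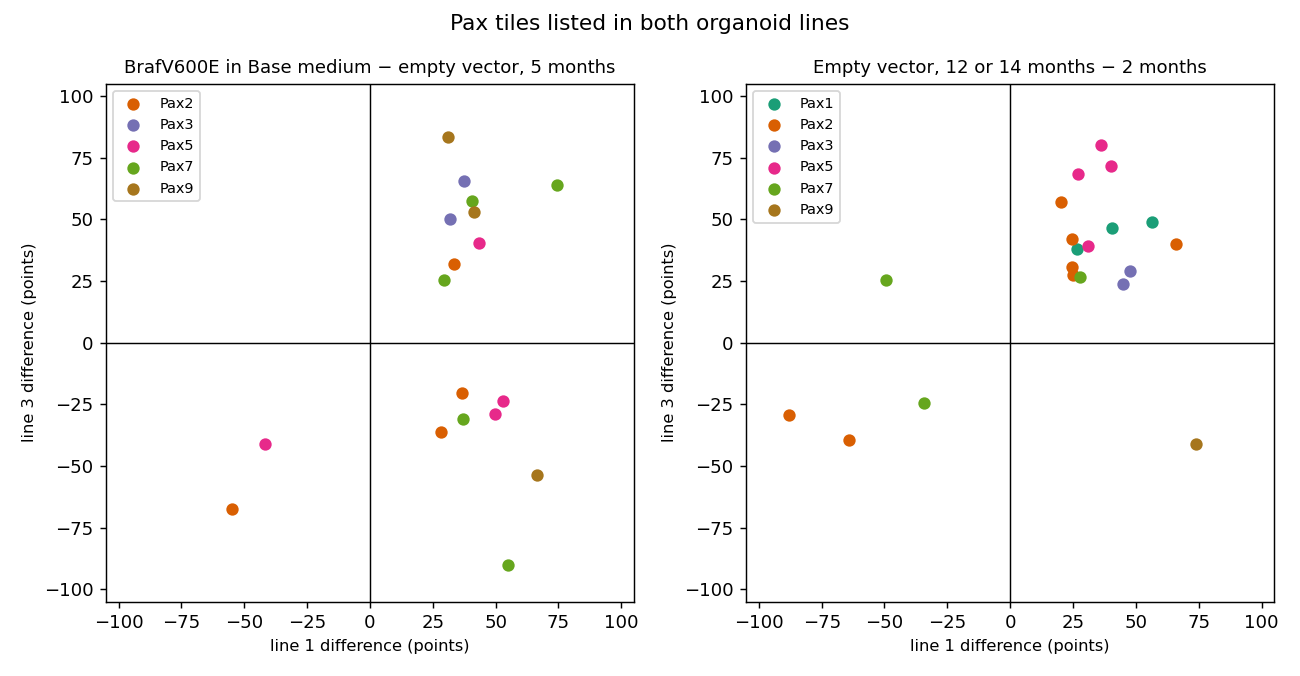
Each point is a Pax tile listed in both organoid lines, placed by its difference in line 1 (x axis, percentage points) and line 3 (y axis, percentage points), with BrafV600E in Base medium minus empty vector (left, 18 tiles) and with 12 or 14 months minus 2 months (right, 20 tiles), coloured by gene. The 7 opposite tiles on the left lie in the quadrant of line 1 gains and line 3 losses.

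The BrafV600E and long culture comparisons share no library, which allows their tiles to be set side by side within a line. In line 3, 37 Pax tiles were listed in both comparisons, and 26 gained in both, 3 lost in both and 8 lost with BrafV600E and gained with long culture, with 0 the other way round. The same direction was thus found for 78.4% (95% interval 61.8 to 90.2), against 51.9% of 6964 such tiles over the whole tables, a difference that was not tested. The 5 such tiles of Pax1 and the 6 of Pax3 gained in both comparisons, and the 8 opposite tiles lay in Pax2, Pax5, Pax7 and Pax9. In line 1 only 9 tiles were listed in both comparisons, 4 of them in the same direction, against 48.9% of 2384 over the whole tables. The control libraries differ in culture time, 5 months for BrafV600E and 2 months for long culture.

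**Figure D5:**
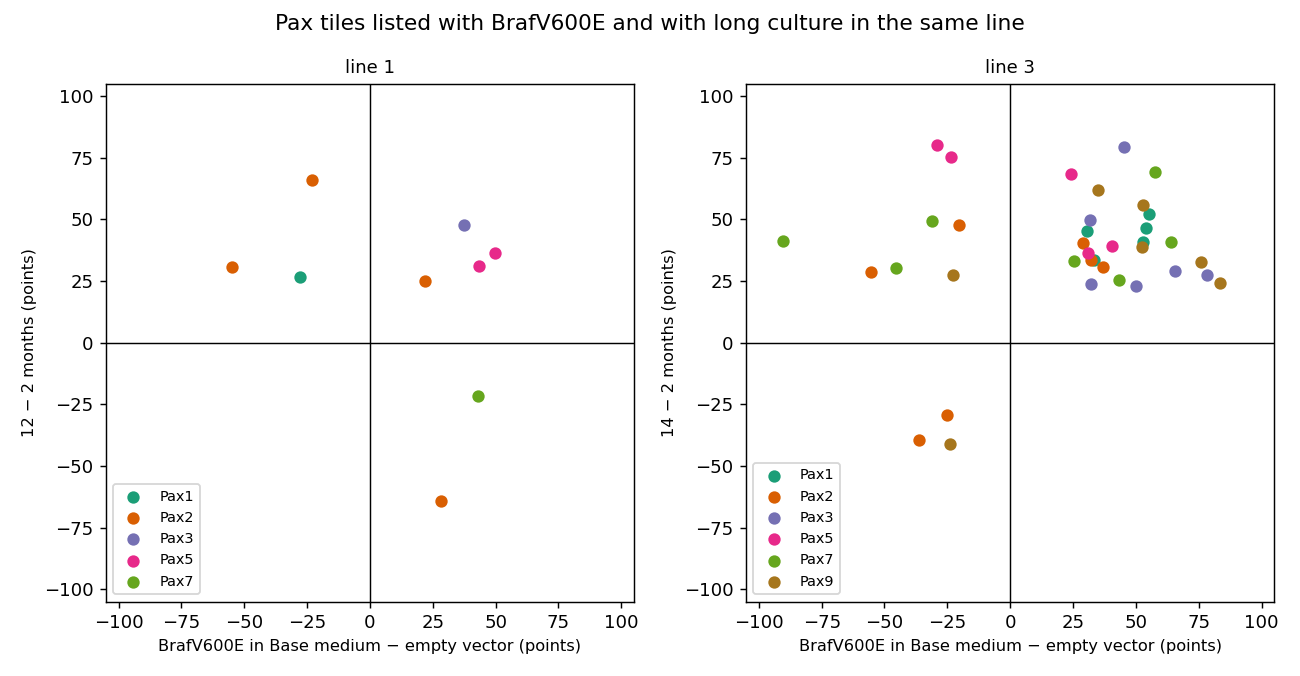
Each point is a Pax tile listed with BrafV600E and with long culture in the same line, placed by its difference with BrafV600E in Base medium minus empty vector (x axis, percentage points) and its difference with 12 or 14 months minus 2 months (y axis, percentage points), for line 1 (left, 9 tiles) and line 3 (right, 37 tiles), coloured by gene. In line 3, 26 points are gains in both and 3 are losses in both. Another 8 lost with BrafV600E and gained with long culture, and no point goes the other way.

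Of the 146 distinct tiles, 84 were listed once, 36 in 2, 22 in 3 and 4 in all 4 comparisons. Among the 26 listed in 3 or 4, 14 gained throughout, 1 lost throughout and 11 had both directions. The 14 include tiles of every listed member, and the one that lost throughout is the Pax2 tile from 44783601 described above.

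The other family members and genes that work with Pax proteins were counted in the same windows. Pax4, a factor of pancreatic and gut endocrine cells, had 0 listed tiles. Pax6, the regulator of eye and endocrine development, had 6 gains and 1 loss in line 1 and 20 gains and 1 loss in line 3 with long culture, and 3 gains and 0 losses in line 1 and 3 gains and 2 losses in line 3 with BrafV600E, in the authors' deposited tables. Of 11 genes of the network in which the Eya phosphatases, their homeodomain partners and the Dach corepressors act downstream of or beside Pax proteins, 5 had gains in both lines with BrafV600E (Eya2, Eya4, Six2, Six3 and Six6) and 2 with long culture (Six2 and Six3), against 11.3% and 6.49% of protein-coding genes. Losses in both lines were found at 1 gene in each comparison, Six3 with BrafV600E and Six4 with long culture, against 6.07% and 4.07% of protein-coding genes. The lines were opposite at Six6 with long culture, where the authors' deposited tables held 5 losses averaging -47.2 points in line 1 and 9 gains averaging 47.4 points in line 3.

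Of 16 genes known as targets or partners of Pax proteins, 8 had gains in both lines with BrafV600E and 9 with long culture, against 11.3% and 6.49% of protein-coding genes. Losses in both lines were found at 3 and 4 of the 16, against 6.07% and 4.07%. Neither these genes nor the network genes above were matched for length, and a longer gene has more tiles that could be listed. Among genes at least as long as the shortest Pax member, 14.9% with BrafV600E and 8.21% with long culture had a gain in both lines. For losses the shares were 9.07% and 6.18%. Gata3, which acts with Pax2 in kidney development, gained at 10 and 18 tiles with BrafV600E in lines 1 and 3, with means of 46.5 and 47.1 points and 0 losses, in the authors' deposited tables. With long culture Gata3 had 4 gains and 3 losses in line 1 and 16 gains and 1 loss in line 3. Bmp4, a signal that works with Pax9 in the tooth, had 4 and 3 gained tiles with BrafV600E and 2 and 4 with long culture, and 0 losses in any table. Msx1, its partner there, gained at 3 and 8 tiles with BrafV600E, by means of 81.7 and 45.3 points, and at 5 tiles with long culture in line 3. Myod1, the muscle regulator downstream of Pax3 and Pax7, lost at 1 and 2 tiles with BrafV600E in lines 1 and 3 (means of -36 and -49.2 points). With long culture Myod1 had 0 listed tiles in line 1 and 2 gains, averaging 27.4 points, in line 3. The B cell and thyroid genes were divided. Ebf1, a B cell factor that acts with Pax5, had 6 gains and 2 losses in line 1 and 5 gains and 8 losses in line 3 with BrafV600E, and 2 gains and 2 losses in line 1 and 5 gains and 1 loss in line 3 with long culture. Nkx2-1, a thyroid factor that acts with Pax8, had 4 gains in line 1 and 2 losses in line 3 with BrafV600E, and 1 gain and 1 loss in line 1 and 13 gains in line 3 with long culture. Slc5a5, the iodide transporter of the thyroid, had 1 loss in line 1 and 1 gain and 3 losses in line 3 with BrafV600E, and 1 gain in line 1 and 5 gains and 1 loss in line 3 with long culture, in the authors' deposited tables. The B cell genes Cd79a and Blnk, the thyroid gene Tg and the muscle gene Myf5 had 0 listed tiles in either comparison.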

How the data were processed

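Reduced representation bisulfite libraries were read as 50 bp single-end reads with about 10% phiX, per the labels' protocols. The submitters' processing notes list the tools methylKit 1.7.4, Bismark 0.14.3, Trim Galore 0.4.4 and FastQC 0.11.7, with GRCm38 (mm10) as the build. For the coverage minimum and the conversion rate no value is given in the sources used here. Per the file headers, the authors deposited methylation differences in percentage points for 200 bp tiles, with the p-value and q-value of each. Depth is unknown.

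Tiles were taken where they overlapped the GRCm38.p6 RefSeq span with 2 kb either side, using Python 3.11.15 and pandas 2.3.3. All other protein-coding genes were counted the same way. A step that counts windows, merges and shared tiles was tested on simulated data. Distances run from the tile's middle to the nearest RefSeq start of the same Pax gene, and over all listed tiles to that of any protein-coding gene. A gene was called when it held at least 1 tile of a direction. No test was run, since each group has 1 library per line. Named tiles were drawn from the largest differences per member and comparison, tiles listed in both lines and tiles listed in 3 or 4 within-line comparisons. Not every such tile is named. Some others, in runs or printed sequences, were chosen after their values were seen. Members and lists were chosen with earlier results of these data known, and some listed genes are not reported here. Alternatives were stricter differences and q-values, other windows, merged tiles and leaving out a line. Replicate numbers are organoid lines, which the authors' comparisons already pair.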

Additional observations from a re-analysis of the deposited data

Results flagged for a closer look

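The lines had opposite signs in the results below, which were picked out for that alone. The difference between the lines was not tested. A member's mean is taken over the tiles listed in each line, which are not all the same. With BrafV600E in Base medium, the single listed Pax1 tile of line 1 had -27.9 points and the 10 tiles of line 3 averaged 23 points. That tile of line 1 lies outside the Pax1 span and in AI646519, so line 1 has no value with the gene span alone or without shared tiles. Line 3 had no listed value at that tile. The line 3 tiles from 147362201 and 147362401, also in AI646519, had differences of -44.1 and -33.7 points, so at Pax1 the opposite signs rest on different tiles. The other means, line 1 before line 3, were 22.1 and -22.5 points for Pax2, 36 and -24.4 points for Pax5, and 43.1 and -10.7 points for Pax7, in the authors' deposited tables. With long culture the Pax7 mean was -7.56 in line 1 and 25.9 in line 3, although 2 of the 3 Pax7 tiles shared by the lines had the same direction.

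At single tiles with BrafV600E, the authors' deposited tables gave (line 1, then line 3) 36.7 and -20.3 points at the Pax2 tile from 44760001 and 28.4 and -36.1 points at the Pax2 tile from 44812601. They were 49.7 and -28.9 points at the Pax5 tile from 44703601, and 52.8 and -23.7 points at the Pax5 tile from 44704001. At Pax7 they were 55 and -90.2 points for the tile from 139818201, and 37.1 and -31.1 points for the tile from 139821401. The Pax9 tile from 56697001 had 66.7 and -53.7 points. With long culture the Pax7 tile from 139823601 had -49.3 and 25.4 points and the Pax9 tile from 56698001 had 74.1 and -41.2 points. All 7 opposite tiles with BrafV600E gained in line 1 and lost in line 3. The line 1 BrafV600E library is the one whose source name gives line 3; its part in this was not tested.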

How the results depend on the processing

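The share of gains over both lines was 64% of 114 Pax tiles with BrafV600E and 87.1% of 124 with long culture. Leaving out a line moved it to between 50% and 90% with BrafV600E, and to between 77.4% and 90.3% with long culture, and merging tiles within 500 bp moved the long culture share to 77.8% of 63 regions. Under every other alternative run, the share of gains was 60.3% to 68.5% with BrafV600E and 84.3% to 90.6% with long culture. The share of tiles with the same direction in both lines was 53.3% (8 of 15) to 75% (6 of 8) with BrafV600E. With long culture it was 80% (4 of 5) to 89.5%. Members with gains in both lines numbered 4 or 5 with BrafV600E and 5 or 6 with long culture. Those with losses numbered 2 or 3 in each comparison. All lay within the main interval or within 1.5 times. That rule cannot show stability, since the intervals take tiles as independent and the alternatives largely reuse the same tiles. The mean of a member changed sign in 4 cases, to -1.78 points for Pax9 in line 3 with BrafV600E in the gene span alone, to -19.5 points there and -6.86 points for Pax9 in line 3 with long culture without tiles shared with another gene (an alternative added after seeing the data), and to -3.53 points for Pax5 in line 1 with long culture at 40 points or more. Without changing sign, the long culture Pax7 mean of line 1 moved to -0.838 points at q under 0.001, -0.563 points with tiles merged and -49.3 points, on 1 tile, at 40 points or more. For Pax1 with BrafV600E, line 1 has no tile at 40 points or more, in the gene span alone or without shared tiles, so its contrast with line 3 cannot be made there, and the line 3 mean was 10.0 points with tiles merged and 14.6 points with 10 kb either side. With BrafV600E the opposite signs of the lines held under each of these alternatives for Pax2 (10.8 to 22.6 points in line 1, -59.9 to -19.3 in line 3), Pax5 (30.9 to 47.1, -35.0 to -22.6) and Pax7 (42.9 to 51.0, -26.9 to -7.22). No paired analysis was possible because the tables give differences already taken within a line, with no value per library to pair. Depth is unknown, so the precision of single tiles cannot be given.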
